A study of Rattus norvegicus with 4 samples.

Results

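This account follows 5 genes of retinol handling in rat kidney, Rbp4, Ttr, Lrp2, Cubn and Aldh1a1, taken as every probe set that the platform annotation gives to one of these symbols alone. Each gene had 1 such probe set, so 5 of the 10411 genes named on the array are described. Rbp4 was chosen by its low signal in the hypertensive strain on these arrays, and the other genes for their function. Kidney RNA came from male rats aged 9 weeks of 2 inbred strains, the spontaneously hypertensive rat (SHR), which has inherited high blood pressure, and Brown Norway (BN), a strain with normal blood pressure. Animals of each strain had been exposed before birth to nicotine or, as controls, to saline. Equal amounts of RNA were pooled from 13 nicotine and 12 saline animals of SHR and from 12 nicotine and 12 saline animals of BN, and each pool was read on 1 Affymetrix RAE-230A array. All values are MAS5 signal intensities on an arbitrary linear scale, so the signals of different genes are not set against each other.

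Retinol, or vitamin A, travels in blood bound to retinol-binding protein, encoded by Rbp4, which circulates in a complex with transthyretin, encoded by Ttr. The complex is held back by the glomerulus, while free retinol-binding protein passes into the tubule fluid. There the proximal tubule takes it up by endocytosis through megalin (Lrp2), a large receptor of the LDL receptor family that works together with cubilin (Cubn). Inside cells, retinal is oxidised to retinoic acid by retinal dehydrogenases such as Aldh1a1, and retinoic acid acts on nuclear receptors. The liver is the main source of both blood carriers, and Rbp4 mRNA is also made in kidney and fat.

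Rbp4 was chosen for its low signal in SHR. Of the other 3 genes tested, Lrp2 and Cubn passed for a strain difference, as did 18.1% of all probe sets. Both calls depended on the fit, as given below. The promoters of Rbp4, Lrp2 and Cubn are shown because they are where the reference sequence can be read beside these values. Each is the 250 bases before the RefSeq start of the gene in the build GRCr8, which was assembled from a Brown Norway rat, read 5′ to 3′ along the gene. The SHR sequence was not used here. Capitals mark a TATAAA motif on the gene's strand.
Rbp4 at chr1:245313552-245313801, minus strand: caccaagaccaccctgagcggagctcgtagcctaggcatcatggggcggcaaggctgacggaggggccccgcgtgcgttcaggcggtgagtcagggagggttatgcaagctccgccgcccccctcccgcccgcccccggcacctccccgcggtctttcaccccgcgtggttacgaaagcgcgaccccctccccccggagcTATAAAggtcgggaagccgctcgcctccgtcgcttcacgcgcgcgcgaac
Lrp2 at chr3:74754536-74754785, minus strand: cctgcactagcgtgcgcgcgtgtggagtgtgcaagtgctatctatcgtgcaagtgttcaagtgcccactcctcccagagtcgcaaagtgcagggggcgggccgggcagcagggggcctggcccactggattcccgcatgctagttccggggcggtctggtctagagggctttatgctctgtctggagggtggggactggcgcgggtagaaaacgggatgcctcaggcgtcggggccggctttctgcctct
Cubn at chr17:81501695-81501944, minus strand: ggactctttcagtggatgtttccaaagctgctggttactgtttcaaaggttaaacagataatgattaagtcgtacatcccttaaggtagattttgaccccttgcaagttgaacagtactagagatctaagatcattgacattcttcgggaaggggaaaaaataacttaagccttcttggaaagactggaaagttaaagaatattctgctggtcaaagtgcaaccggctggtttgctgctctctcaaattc
The Rbp4 promoter had a GC content of 70.8%, above that of 92.8% of 33469 rat promoters of this length, and held 31 CpG dinucleotides against a median of 5. The Lrp2 promoter had a GC content of 64.4% with 17 CpG dinucleotides, and the Cubn promoter 40% with 3. TATAAA, searched on the gene's strand, was found in the Rbp4 promoter, starting 50 bases before the gene's start, and in 8.06% of all promoters. The nuclear receptor motif AGGTCA, searched on both strands and present in 14.1% of all promoters, was not among the letters of these 3 windows, nor was GTTAAT, present in 6.45%. No motif overlapped another.

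As a check of the tissue, markers of the kidney tubule were bright on all 4 arrays: the urine protein gene Umod read 4044 to 5260 and the phosphate carrier gene Slc34a1 3872 to 5024. A floor of 44.5, the 40th percentile of the table, replaced any lower signal before ratios were taken, because such signals have no reliable order. A gene was counted as measured where the higher of the group means, or of the pools compared, reached 89.0, or 2 times the floor. With 1 pool per group, ratios between single pools have no replicate and are given without a test. Averages of strain over treatments and of treatment over strains were tested with limma on log2 signals over all measured probe sets, with Benjamini-Hochberg adjustment at 0.05. The fit left 1 residual degree of freedom per probe set, so limma drew each variance largely from other probe sets of like signal. The p-values thus do not rest on a gene's own spread alone. The spread between the 4 arrays does not hold the spread between animals. In whole-kidney RNA, fewer cells of a type and less RNA per cell cannot be told apart.

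Rbp4, the blood carrier of retinol, was read at 35.6 in the SHR nicotine pool and 16.8 in the SHR saline pool, both under the floor. In BN its signal was 529.5 with nicotine and 515.5 with saline. The BN pools differed from each other by 1.03-fold. Set against the floor, SHR had at least 11.6-fold less Rbp4 signal than BN with saline and at least 11.9-fold less with nicotine. Of 7120 probe sets measured under saline, 1.14% were at least 2-fold lower in SHR, and 0.98% of 7143 under nicotine. Averaged over treatments, the Rbp4 difference was at least 3.55 on the log2 scale. No test is given, because Rbp4 was chosen for this contrast. The bound was -2.43 with the floor at the 60th percentile. With the floor at the 20th percentile both SHR signals lay above it, and the plain difference of these low signals was -4.42.

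**Figure D1:**
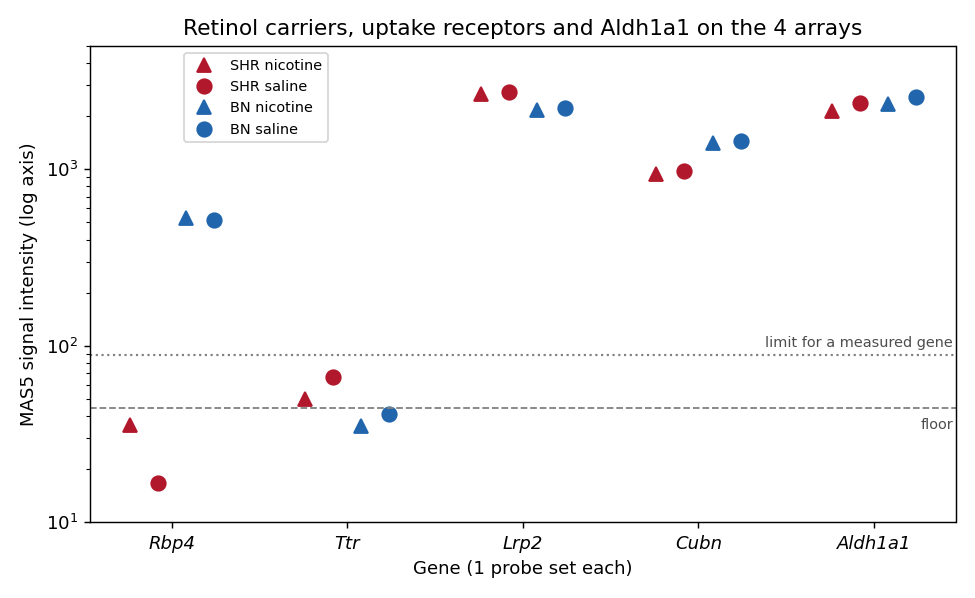
MAS5 signal intensity (log axis) of Rbp4, Ttr, Lrp2, Cubn and Aldh1a1, 1 probe set each, on the 4 arrays; each point is 1 pool, red for SHR and blue for BN, circles for saline and triangles for nicotine, with the floor of 44.5 and the measured limit of 89.0 as lines. Rbp4 lies under the floor in both SHR pools and above 500 in both BN pools, Ttr lies under the limit on every array, and the other genes lie well above it.

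The signal profile of Rbp4 over the 4 arrays was set against that of 6092 other named probe sets, as the root mean square distance between log2 signals centred on each probe set's mean. The nearest was Klk1c4, of the kallikrein family, at a distance of 0.14, then the phosphate and urate carrier gene Slc17a3 at 0.15. Ythdf2 at 0.34, the class II gene RT1-Bb at 0.40 and Wdr90 at 0.48 made up the nearest 5 genes. The median distance, 1.78, largely reflects the strain difference for which Rbp4 was chosen, so it is no yardstick of likeness. Like Rbp4, Klk1c4, Slc17a3 and RT1-Bb were under the floor in both SHR pools and were measured only through BN. Slc17a3 read 15.4 and 16.5 in SHR against 436.9 and 414.4 in BN. Ythdf2 was above the floor in SHR, at 55.8 and 64.9 against 449.0 and 448.3 in BN. Since values under the floor are set equal, closeness among these genes rests largely on their BN level.

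Ttr, whose protein carries retinol-binding protein and thyroid hormone in blood, stayed under 89.0 on every array. Its signal was 50.2 and 66.1 in the SHR nicotine and saline pools and 35.1 and 41.2 in the BN pools. The SHR values were above the floor and the BN values under it, but none reached the measured limit, so a difference was not detectable at this signal. A further probe set is annotated to Ttr together with metallothionein genes; its signal cannot be given to any of them and was left out.

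Markers of liver and fat, the other known sites of Rbp4 mRNA, were read beside it. Of 14 hepatocyte markers 13 were on the array, 7 of them under the floor on all 4 arrays, among them Apoa1 and Ahsg, and Alb read 34.2 to 49.95. Apoc3 was the 1 that was measured, at 196.0 to 217.7 with no strain call, and Fga read 38.8 and 39.0 in the SHR nicotine and saline pools against 72.2 and 70.3 in the BN pools, under the limit. Their summed signal was 548.7 and 499.1 in SHR and 534.3 and 543.8 in BN. Of 10 adipocyte markers 7 were on the array, and Lep, Plin1 and Lipe were under the floor throughout. Their sum was 609.0 and 683.0 in SHR against 851.8 and 747.6 in BN. Of this, Lpl alone read 341.3 and 375.7 in the SHR nicotine and saline pools against 580.6 and 527.6 in the BN pools. Fabp4, under the limit, read 53.2 and 79.4 in SHR against 58.5 and 44.6 in BN, in the same order. Thrsp read 134.7 and 137.1 against 134.6 and 102.0 and did not pass for strain. The lower sum in SHR thus rested on Lpl, not on the adipocyte markers as a group. The part of fat in the Rbp4 difference was not tested.

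Lrp2, which encodes megalin, was higher in SHR. It read 2657 with nicotine and 2728 with saline in SHR, against 2172 and 2221 in BN. The pools of a strain were within 1.03-fold of each other. Averaged over treatments, Lrp2 was 1.23-fold higher in SHR (log2 0.29, SE 0.06, 2 pools each, adjusted p = 0.0027 with limma). Without the intensity trend in the variance the limma adjusted p was 0.122, and it was 0.085 with BN nicotine left out and 0.0628 with BN saline left out.

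Cubn, which encodes the peripheral membrane receptor that binds vitamin B12 with its carrier, albumin and transferrin, was lower in SHR. It read 941.2 and 983.2 in the SHR nicotine and saline pools and 1410 and 1437 in the BN pools. The pools of a strain differed by 1.04-fold in SHR and 1.02-fold in BN. The average difference was 1.48-fold (log2 -0.57, SE 0.07, 95% interval -0.71 to -0.42, adjusted p = 8.12e-06 with limma). The receptors thus differed in opposite directions, Lrp2 by 0.29 and Cubn by -0.57, which are 0.86 apart on the log2 scale. Of all 7037 probe sets tested, 18.1% passed for strain, 8.67% higher and 9.42% lower in SHR, so passing the test is not rare. In size, 6.62% of probe sets had a larger strain difference than Cubn and 23.0% a larger one than Lrp2. The calls of both receptors were lost when probe sets near the floor were kept in the fit, at adjusted p of 0.308 for Cubn and 0.379 for Lrp2 with limma, and then 0 of 15866 probe sets passed.

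**Figure D2:**
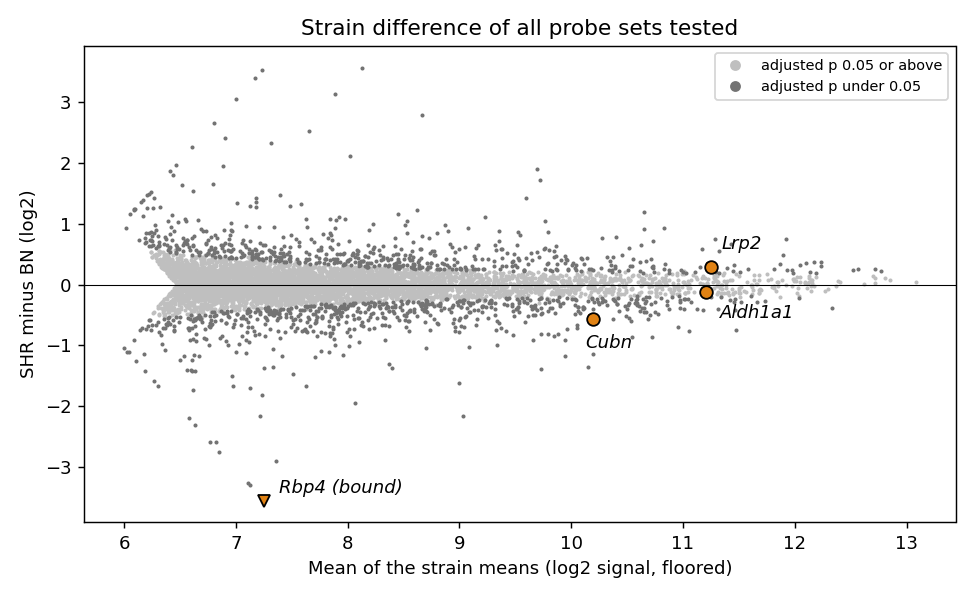
SHR minus BN difference (log2) of 7037 probe sets against the mean of the strain means (log2 signal after flooring), averaged over treatments; dark points passed the limma test at an adjusted p of 0.05, and orange symbols are Lrp2, Cubn and Aldh1a1 with their SE (smaller than the symbol) and Rbp4 as a bound. Rbp4 is drawn at its bound of -3.55, Cubn lies at -0.57, Lrp2 at 0.29 and Aldh1a1 at -0.13.

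Aldh1a1, the retinal dehydrogenase of the set, had a signal of 2152 with nicotine and 2360 with saline in SHR. In BN it read 2358 and 2572. Across treatments the strains overlapped: the SHR saline pool lay beside the BN nicotine pool. Within each treatment the SHR over BN log2 ratio was similar, at -0.12 with saline and -0.13 with nicotine. The strain difference was -0.13 (SE 0.06, 95% interval -0.26 to 0.0048) and missed the threshold, with an adjusted p of 0.18 in limma. A decrease in SHR of up to 0.26 is within that interval.

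Lrp2, Cubn and genes that work beside them were read from a list of 32, of which 28 were on the array and 25 were measured. In SHR 6 were higher, Lrp2 among them, and 3 lower, Cubn among them. This was 36.0% of those tested, the receptors included, against 18.1% of all probe sets (8.67% higher and 9.42% lower). The list's median difference was 0.05 against 0.0024 over all probe sets. Among the partners of the receptors, Amn, the membrane anchor of cubilin, was 1.18-fold higher (adjusted p = 0.0375 with limma), and its other probe set gave 0.42. Lrpap1, the chaperone that keeps megalin from binding ligand too early, was 1.19-fold lower, and its other probe set gave -0.17 without passing. Dab2, the adaptor at megalin's tail, stood at 0.09 and did not pass. Pdzk1, a scaffold of the brush border, rose by 0.28 in SHR and Gipc2 by 0.26. The sodium-proton exchanger gene Slc9a3 was higher by 0.41, the clathrin light chain gene Cltb by 0.32, and Vps35, a retromer subunit that returns cargo from endosomes, was lower by 0.45. Other clathrin and adaptor genes, Cltc, Clta, Ap2a2, Ap2b1, Ap2m1 and Ap2s1, had differences of -0.18 to 0.18 and did not pass. The count fell when any array was left out, in limma fits that with 3 arrays also drop treatment: without BN nicotine or BN saline 0 were higher and 1 was lower, without SHR nicotine 2 and 2, and without SHR saline 2 and 1. With all 4 arrays it was 4 and 3 when treatment was dropped, and 0 and 1 without the intensity trend. Cubn was lower in each of these fits. Amn, Gipc2, Cltb, Lrpap1 and Slc9a3 each missed the threshold whichever of the 4 arrays was left out, Pdzk1 without either BN array, and Vps35 without BN nicotine, BN saline or SHR saline. Rab7a stood at 0.09 on its brightest probe set, while its other one rose by 0.32.

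Markers of the early proximal tubule, where megalin is abundant, also differed. Of 5 measured, 3 passed higher in SHR (60%), against 18.1% of all probe sets, 8.67% higher and 9.42% lower. These were the glucose carrier gene Slc5a2 by 0.37, Slc34a1 by 0.36 and the organic anion carrier gene Slc22a6 by 0.30. The other measured probe set of Slc34a1 gave 0.895. Without either BN array the calls of Slc5a2 and Slc22a6 were lost, and that of Slc22a6 also without SHR saline. The other 2, Gatm and Hnf4a, stood at 0.23 and 0.01. The summed signal of these 5 was 9858.0 and 10338.4 in SHR against 8434.8 and 7971.9 in BN. The increase of Lrp2, 0.29, was near that of the 3 called genes on their brightest probe sets only, while Cubn went the other way. The part of these cells in either was not tested. Markers of other kidney cells differed too. Umod of the loop of Henle was higher in SHR by 0.37, while the loop carrier gene Slc12a1 was lower by 0.76. The macrophage lysozyme gene Lyz2 was higher by 0.77. The endothelial receptor gene Kdr was higher by 0.32, while the endothelial gene Vwf was lower by at least 1.58, with both SHR pools under the floor. The collecting duct genes Fxyd4 and Aqp2 were lower by 0.76 and 0.41, while Slc4a1 of the same list was higher by 0.42. Among markers of other kidney cells, Aqp3, Slc12a3 and Podxl were also called, at -0.30, -0.32 and -0.55, and Fcer1g and Col3a1 at 0.36 and 0.72. Without the intensity trend the calls of Umod, Kdr, Aqp2, Aqp3, Slc4a1, Slc12a3 and Fcer1g were lost, as were those of the 3 early proximal tubule genes. The calls of Kdr, Aqp2, Aqp3, Slc4a1, Slc12a3, Fcer1g and Podxl also depended on which arrays were kept. Of 7 measured markers of the late proximal tubule, 2 passed, both lower in SHR (28.6%, against 18.1% of all probe sets). These were the organic anion carrier genes Slc22a13, by at least 5.98-fold, and Slc22a7, by 1.29-fold. Both SHR pools of Slc22a13 were under the floor. The other 5 markers lay between -0.14 and 0.17 without passing. The call of Slc22a7 was lost whichever of the 4 arrays was left out. The 7 markers' summed signal was 17721.8 and 17143.0 in SHR and 16502.0 and 17128.4 in BN. RNA integrity was read from control probe sets at either end of a transcript. The ratio of 3′ to 5′ signal for beta-actin was 1.34 and 1.39 in SHR and 1.49 and 1.54 in BN, and its part in the differences was not tested; that of Gapdh overlapped between strains.

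In the wider list of retinoid transport and metabolism, 28 of 43 genes were on the array and 12 were measured. Leaving out Rbp4, 5 of 11 passed for strain, 2 higher and 3 lower in SHR, a share of 45.5% against 18.1% of all probe sets, with a median of -0.09. Akr1b8, an aldo-keto reductase that can reduce retinal, was 2.43-fold higher in SHR, at 193.2 and 266.1 in the SHR nicotine and saline pools against 99.6 and 87.3 in the BN pools (adjusted p = 7.73e-06 with limma). Rdh16, a retinol dehydrogenase, was 1.69-fold higher, at 464.3 and 428.0 in the SHR nicotine and saline pools against 264.8 and 262.5 in the BN pools. Adh1c, an alcohol dehydrogenase that also oxidises retinol, was 1.37-fold lower, at 1473 and 1461 in the SHR nicotine and saline pools against 2089 and 1942 in the BN pools. Lpl, the lipase that frees fatty acids and retinyl esters from lipoproteins, was 1.55-fold lower. These 4 calls held in 12 of 13 alternative fits, all but the fit without a filter on low signals.

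Stra6, the membrane receptor that takes retinol from retinol-binding protein, was lower in SHR by 0.58 on the log2 scale on its brightest probe set, at 164.3 and 148.2 in the SHR nicotine and saline pools against 222.6 and 245.9 in the BN pools. Its other 2 measured probe sets gave 0.07 and 0.03 and did not pass, so the probe sets of Stra6 disagreed, and the mean over its probe sets gave -0.15. Without BN nicotine, BN saline or SHR saline the Stra6 call was lost. The reductase genes Dhrs3 and Dhrs4 and the dehydrogenase genes Rdh10 and Rdh11 differed by -0.24 to 0.12 and did not pass. Below the floor on every array were 12 genes of the list, among them Lrat, which forms retinyl esters, and Cyp26a1 and Cyp26b1, which break down retinoic acid. Aldh1a2, the other retinal dehydrogenase with a visible signal, read 61.0 to 91.8 and was not tested.

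**Figure D3:**
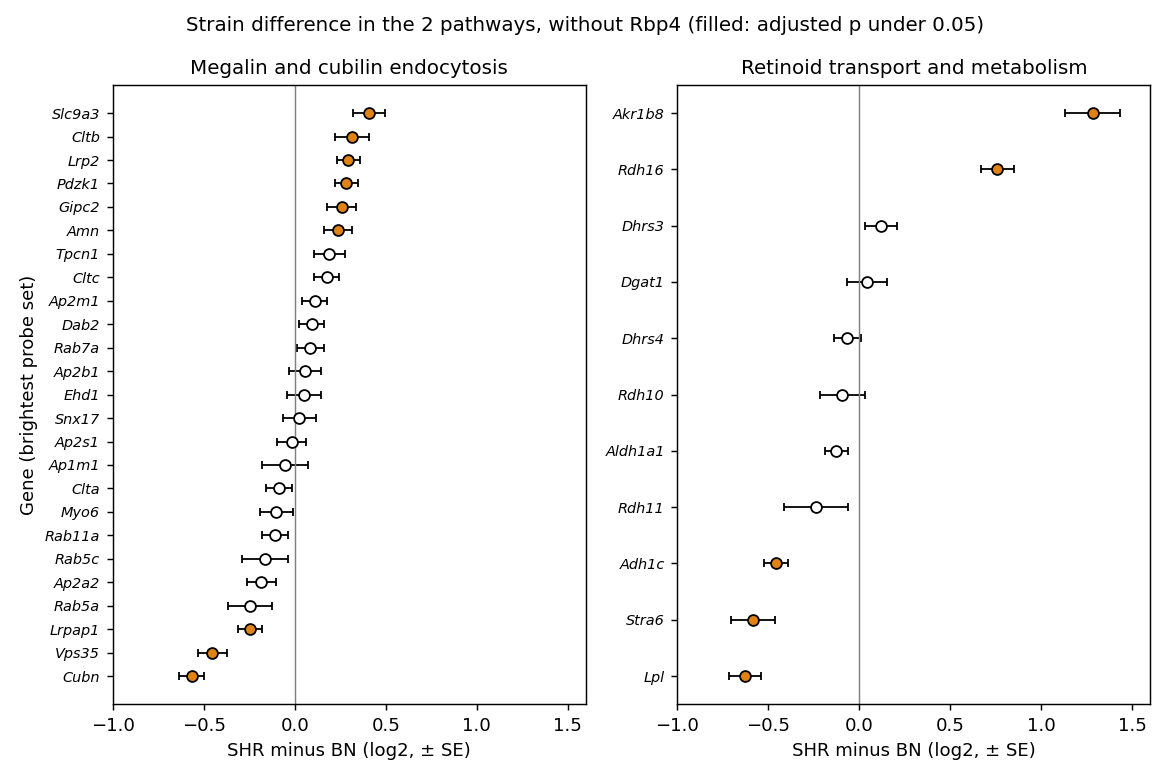
SHR minus BN difference (log2, with SE) of each measured gene of megalin and cubilin endocytosis (left, 25 genes) and of retinoid transport and metabolism without Rbp4 (right, 11 genes), by brightest probe set; filled points passed the limma test at an adjusted p of 0.05. Cubn is the lowest gene on the left and Lrp2 is among the higher ones, and Akr1b8 and Rdh16 stand above the other genes on the right.

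Of the retinoic acid receptors, their cofactors and known targets, 22 were on the array and 12 were measured. In SHR 1 passed higher and 1 lower, 16.7% of those tested and near the 18.1% of all probe sets, with a median of 0.08. The higher one was Ppard, a nuclear receptor that can also bind retinoic acid, by 0.53 (1.44-fold), a call that was lost without BN saline, SHR nicotine or SHR saline. The lower one was Stra6, which is in both lists. The receptor genes Rara, Rarb and Rxrg stood at 0.36, -0.06 and 0.20 and did not pass, and Rxra and Rxrb were under 89.0 on every array. The retinoic acid responsive genes Tgm2, Rarres2 and Dhrs3 stood at 0.09, -0.08 and 0.12.

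Among other proteins that megalin and cubilin take up from tubule fluid, 13 genes other than Rbp4 were measured in kidney, of which 2 were higher and 4 lower in SHR (46.2% of those tested against 18.1% of all probe sets, median -0.09). Cst3, the filtered protease inhibitor cystatin C, was 1.36-fold lower, Apoe 1.30-fold lower and Gc, the vitamin D-binding protein gene, 1.19-fold lower, with Lpl as the fourth. Igf1 was 1.57-fold higher, although its other probe set gave -0.06, and Apoh was 1.49-fold higher. Among these only Lpl passed without each array in turn. When the probe sets of each gene were averaged, the sign of Gc turned, to 0.14, and Apoe missed the threshold. In that fit 0 of these genes passed higher and 3 lower. The counts were 1 and 1 without the intensity trend, 1 and 2 with quantile normalisation, and 1 and 3 with cyclic loess. B2m, the light chain of class I molecules, stood at -0.09 on its brightest probe set, while its other one fell by 0.38. Selenop, Apom, Tcn2 and Egf lay between -0.09 and 0.16 and did not pass.

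Between prenatal nicotine and saline, 0 of the 4 measured genes were 1.5-fold apart in either strain. Of all measured probe sets 1.98% were at least 1.5-fold apart in SHR and 1.63% in BN. Lrp2 had a nicotine over saline log2 ratio of -0.04 in SHR and -0.03 in BN, and Cubn of -0.06 and -0.03, against an SD over all measured probe sets of 0.21 in SHR and 0.20 in BN. Rbp4 stood at 0.04 in BN; in SHR both pools were under the floor and no ratio is given. Aldh1a1 was lower with nicotine in both strains by similar amounts, at -0.13 in each.

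Averaged over strains, the nicotine differences were -0.04 for Lrp2 (95% interval -0.17 to 0.10), -0.05 for Cubn (-0.19 to 0.10) and -0.13 for Aldh1a1 (-0.26 to 0.0034), all with limma adjusted p of at least 0.92. Aldh1a1 had an unadjusted limma p of 0.0555. No probe set on the array passed for nicotine: 0 of 6924, or 0%, with 376 (5.43%) at an unadjusted limma p under 0.05. The intervals of the 3 genes hold decreases of up to 0.17, 0.19 and 0.26. Larger differences also missed the threshold in this fit, such as -0.38 for the exchanger gene Slc9a3.

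In the endocytosis list 4 of 25 genes had an unadjusted limma p under 0.05 for nicotine and 0 passed after adjustment. Slc9a3 had the lowest, with a difference of -0.38 (-0.38 in SHR and -0.39 in BN, adjusted p = 0.263), followed by Vps35 at 0.28, Dab2 at 0.16 and Rab5c at -0.29. The list's median was -0.0098, against 0.0010 over all probe sets. In the retinoid list 7 of 12 genes were higher and 5 lower with nicotine, with 0 at an unadjusted limma p under 0.05. Its widest differences were -0.14 for Akr1b8, -0.13 for Aldh1a1, and 0.07 for both Dgat1 and Dhrs3. Akr1b8 stood at -0.46 in SHR and 0.19 in BN, a difference that was not tested. Among the receptors and targets Rai1 and Rara stood at -0.29 and -0.16, and Ppard and Rai14 at 0.27 and 0.12. Among the ligands Apoh and Selenop stood at -0.16 and -0.05, and Igf1 and Clu at 0.21 and 0.18. In single strains, 0 genes of the 4 lists were 1.5-fold apart.

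**Figure D4:**
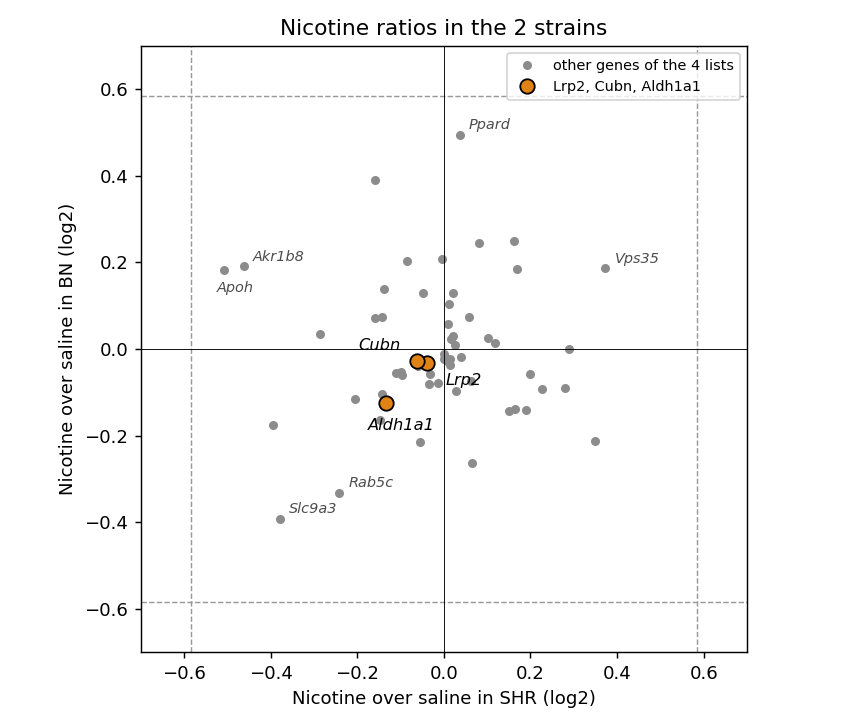
Nicotine over saline log2 ratio in SHR (x axis) and in BN (y axis) of 58 genes, namely Lrp2, Cubn and Aldh1a1 (orange) and 55 other measured genes of the 4 lists (grey); each ratio compares 1 pool with 1 pool, Rbp4 is left out because its SHR signals are under the floor, and dashed lines mark 1.5-fold. All points lie inside the dashed lines, with SHR ratios from -0.51 to 0.37 and BN ratios from -0.39 to 0.49.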

How the data were processed

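The deposited file gives 1 signal intensity for each of 15923 probe sets on 4 arrays. Per the submitters' processing notes, the authors used MAS5 for these intensity values; its settings were not given in the sources used here. All arrays had a 2% trimmed mean of 150.0, which shows scaling before deposit. Without 57 control probe sets, 15866 remained: 12783 had 1 gene symbol, 312 several and 2771 none, and only the first were named, through the gene identifier and RefSeq. Signals were floored at 44.5 and log2 transformed. An additive limma model (limma 3.58.1, R 4.3.3) of strain and treatment, with eBayes and an intensity trend, left 1 residual degree of freedom. The fit was also run on simulated data whose noise depended on signal level alone, so that run does not support the calls. Probe sets entered if the higher of 2 group means reached 89.0. Each probe set was tested on its own, and list genes are given by their brightest probe set. Named genes are the 5 genes, the called or otherwise widest members of each list, and the 5 profiles nearest to Rbp4. Other genes named were chosen after their values were seen. Members and lists were chosen with earlier results of these data known. Nothing in the labels marks separate replicates. Promoters came from RefSeq, which held all 5 genes. Alternatives covered the floor, normalisation, filter, trend, probe set summary, model and arrays.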

Additional observations from a re-analysis of the deposited data

How the results depend on the processing

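Of Lrp2, Cubn and Aldh1a1, 2 passed for SHR against BN. The fits with 1 array left out have strain as the only factor. The count was 1 without the intensity trend and 0 without a filter on low signals, and from 1 to 2 with each array left out. Cubn kept its direction in 13 of 13 alternatives, from -0.60 to -0.53, and passed in 12; Lrp2 kept its direction, from 0.27 to 0.31, and passed in 9. Aldh1a1 passed in 0 of 13 by limma, from -0.19 to -0.06. For nicotine, 0 of the tested genes passed by limma in any alternative. Leaving out 1 array leaves treatment mixed with strain, so the nicotine values then carry the strain difference: from -1.77 to 1.81 for Rbp4, -0.18 to 0.11 for Lrp2 and -0.34 to 0.25 for Cubn. All probe sets called for strain numbered 1273, against 830 with cyclic loess, 745 with quantile normalisation, 661 with means over probe sets, 612 without trend, 0 without a filter and 373 to 609 with an array left out. For nicotine 0 became 1 with the floor at the 20th percentile and 12 at the 60th. With the floor at the 60th percentile the single-pool bound of Rbp4 was -2.42 under saline and -2.45 under nicotine; at the 20th the SHR saline signal lay above the floor and its plain difference was -4.94. No paired analysis was possible because the labels give no replicate numbers; the strain fit already holds treatment as a term, so it compares SHR with BN within each treatment. All values rest on 1 probe set per gene, and signal near background limits Rbp4 in SHR and Ttr throughout.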

Other observations

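The genes next to Rbp4 in the RefSeq order were looked at after the values were seen, taking the 10 nearest protein-coding genes on each side. Of these 20, 8 were on the array and 4 were measured. Cyp2c11, a male-specific steroid hydroxylase gene and the tenth neighbour on one side, was lower in SHR by 0.82 (SE 0.08, adjusted p = 5.69e-07 with limma). The other measured neighbours, Ide, which degrades insulin, Exoc6 and Myof, stood at 0.18, 0.14 and 0.03 and did not pass. Of 5 measured neighbours of Lrp2, Cers6 was lower by 0.47 and Mettl5 higher by 0.57, and of 3 measured neighbours of Cubn 0 passed (limma, adjusted p of at least 0.164). Of 4 measured neighbours of Aldh1a1, Zfand5 was lower by 0.42 and Gda by 0.49, and of 4 of Ttr 0 passed (adjusted p of at least 0.0768). Of all probe sets 18.1% passed.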
